A study of Mus musculus with 6 samples.

Results

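Unsorted lung cells of sham-treated mice were compared with the Lamp1-enriched and the Lamp1-depleted cells sorted from sham-treated lungs, to describe which genes lay above both sorted libraries, between them, or below both. RNA was sequenced from 6 libraries, 1 for each condition, of which the 3 sham libraries carry the comparison. The labels give all mice as C57BL/6 and name no engineered allele, and the study's methods give male C57BL/6J mice. Sham-treated mice received sterile saline and BLM-treated mice bleomycin sulfate, both by oropharyngeal instillation, and lungs were taken weeks later. According to the study's methods, lungs of several mice of a group were pooled per tube, minced, digested with collagenase I, passed through a cell strainer and treated with red blood cell lysis buffer. Sorting followed staining with the viability dye 7-AAD and an antibody to Lamp1 on the cell surface. The gating plots were not used here, and whether the unsorted and sorted RNA came from the same pool of lungs is not given in the sources used here. Of 49315 genes in the table, 21842 had at least 10 reads in the sham unsorted library and were compared, against 20534 by the same rule in BLM. Each condition had 1 library, so no p-value was computed, and each ratio is given with a 95% interval that covers counting error alone. Differences are therefore between these libraries and not shown to be between the kinds of sample.

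A tissue cell enters a sorted fraction only if it survives digestion, passes the strainer and falls inside a gate. Lamp1 is a glycoprotein of the lysosomal membrane that reaches the cell surface when lysosomes fuse with it. If the sorted fractions together held every cell of the suspension with its RNA unchanged, the share of reads on each gene in unsorted cells would lie between the shares in the fractions, apart from counting error. A gene above both fractions had a higher level in the unsorted library than in either sorted library. In bulk RNA, fewer cells of a type and less RNA per cell cannot be told apart.

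The sham libraries held between 39609874 and 45090413 counted reads. Levels are given as CPM, the reads of a gene per 1000000 of the library size after TMM normalization, and ratios as log2 with a prior count of 0.5 reads. Lamp1 itself was at 319 CPM in unsorted, 146 in Lamp1-depleted and 491 in Lamp1-enriched cells. Unsorted cells thus lay between the fractions for the sorted marker. Pecam1, an adhesion molecule of endothelium, also lay between them, at 1123 unsorted, 400 depleted and 1908 enriched. Ptprc, which encodes the pan-leukocyte antigen Cd45, was ordered the other way around, at 462 unsorted, 2593 depleted and 202 enriched. Epcam, an epithelial adhesion molecule, was highest unsorted, at 5.03 against 3.86 and 2.26. Lung markers such as Sftpc, the surfactant protein C gene of alveolar type 2 cells, were present in all 3 libraries, at 779, 85.2 and 585 in the same order.

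Genes were placed by whether the unsorted level was the highest, the middle or the lowest of the 3 sham libraries. Of the 21842 genes, 11277 (51.6%) lay between the sorted libraries, 5982 (27.4%) above both and 4583 (21%) below both by any size. Of those between, 6351 had counting intervals that left out no difference from either sorted library. At least 2-fold above both were 1677 genes (7.68%), and at least 2-fold below both were 38 (0.174%). At least 4-fold above both were 529 genes (2.42%), and 0 (0%) were at least 4-fold below both. With total counts as the scaling, which compares shares of reads directly, 2123 genes were 2-fold above both and 22 were 2-fold below. Many of the genes above both were scarce. Their median was 25 reads in the unsorted library against 273 for all genes compared, and 897 of the 1677 had 3 reads or fewer in at least 1 sorted library. They took 1.49% of the reads of unsorted cells, 0.226% of Lamp1-depleted and 0.298% of Lamp1-enriched cells. The requirement of reads in the unsorted library works against genes below both. With at least 10 reads in whichever sham library was highest, a choice made after seeing the data, 260 genes were 2-fold and 78 were 4-fold below both. With at least 100 reads there, likewise chosen afterwards, 312 of 14939 genes were 2-fold above both and 28 were 2-fold below. The unsorted library was the nearer to Lamp1-enriched cells. The median size of the log2 difference was 0.39 from enriched and 0.91 from depleted, and 72.9% of genes were closer to enriched. This nearness is in RNA levels and is not a share of cells. By the paper's flow cytometry, only a small minority of lung cells of young and middle-aged mice had Lamp1 on the surface. How that relates to the nearness was not tested.

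**Figure D1:**
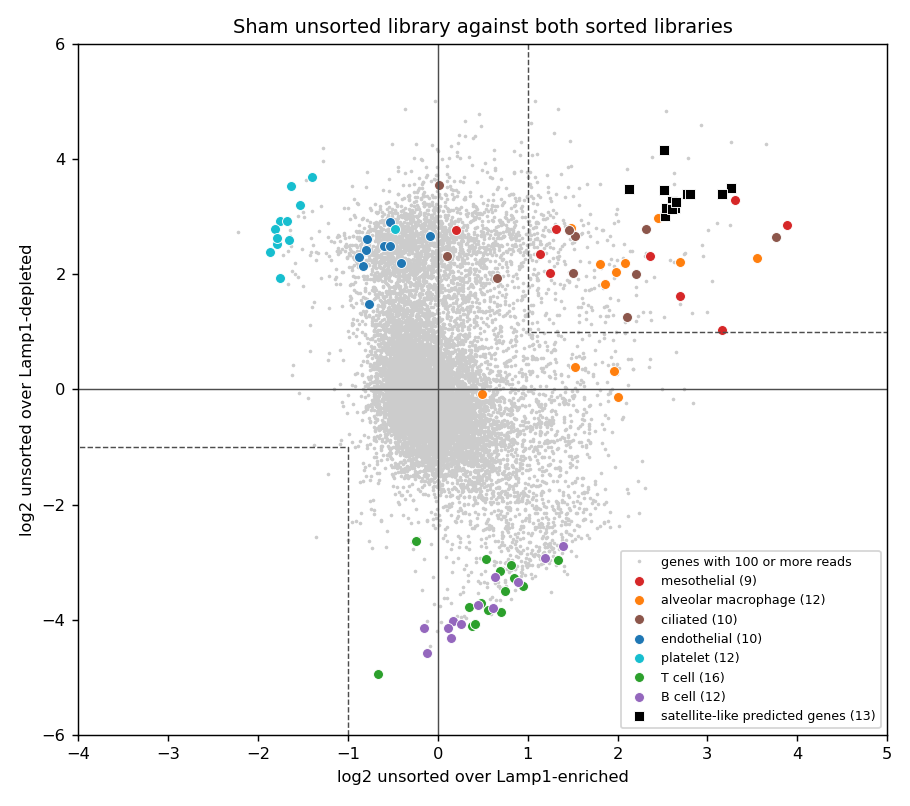
Log2 ratio of the sham unsorted library over Lamp1-enriched cells (horizontal) and over Lamp1-depleted cells (vertical), 1 point per gene, with grey points for genes of 100 or more unsorted reads coloured points for members of marker lists and black squares for the 13 satellite-like predicted genes described next. Points past the dashed lines at upper right were at least 2-fold above both sorted libraries, where 8 of 9 mesothelial genes lie, while endothelial and platelet genes sit at upper left and B and T cell genes at the bottom, most of them to the right of 0.

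The largest quantity of reads above both fractions fell on predicted genes in repeated sequence. Gm10800 on chromosome 2 was at 5359 CPM in unsorted cells, against 508 in Lamp1-depleted and 783 in Lamp1-enriched cells. No other gene above both gained as many CPM over the higher sorted library, 4576. The log2 ratio was 2.77 over enriched (2.76 to 2.79) and 3.40 over depleted (3.38 to 3.42). Predicted genes of this kind are known to lie at copies of the major satellite, the repeat that fills mouse pericentromeres and is packed as constitutive heterochromatin. A search of the longest transcript of each gene in the table found 13 genes, Gm10800 included, that share at least 30% of their 15-base words with Gm10800. They are on chromosomes 2, 9 and 14. All 13 were at least 4-fold above both sorted libraries. The set was built on Gm10800 after its values were seen, and its members share sequence. Their agreement is therefore not that of 13 independent genes. Over enriched cells their log2 ratios ran from 2.12 to 3.26 with a median of 2.61, and over depleted cells from 3.01 to 4.15 with a median of 3.39.

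One stretch is printed from a transcript on each of these chromosomes, 5′ to 3′, because it shows how closely reads of these genes resemble each other. Capitals mark the longest run, 30 bases, that 12 of the 13 transcripts hold letter for letter on the same strand. The other, Gm26870, holds it on the opposite strand, and no further transcript among the 48970 searched holds it on either strand. The genes are given by their positions in GRCm38 (GENCODE M21): Gm10800 at chr2:98666547-98667301 on the minus strand, Gm10722 at chr9:3000922-3002330 on the plus strand and Gm21738 at chr14:19415857-19418930 on the minus strand. The stretches are transcript sequence.
Gm10800: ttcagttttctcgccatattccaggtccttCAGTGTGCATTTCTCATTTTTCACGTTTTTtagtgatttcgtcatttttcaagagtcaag
Gm10722: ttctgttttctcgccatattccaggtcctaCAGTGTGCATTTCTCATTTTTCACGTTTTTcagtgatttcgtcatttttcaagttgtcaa
Gm21738: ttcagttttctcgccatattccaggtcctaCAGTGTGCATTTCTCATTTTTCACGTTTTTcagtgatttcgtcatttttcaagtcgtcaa

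Because the copies are so alike, how many reads belong to each of the 13 genes is uncertain, and their sum is the firmer value. Summed, they were at 7262 CPM in unsorted, 711 in Lamp1-depleted and 1084 in Lamp1-enriched sham cells. In BLM-treated mice the order differed: the sum was 2576 in unsorted, 12437 in Lamp1-depleted and 1668 in Lamp1-enriched cells. Reads counted for the satellite-like genes were thus highest in the unsorted library in sham and in the Lamp1-depleted library in BLM. For each of the 13 genes the BLM log2 ratio over depleted was negative, from -2.69 to -1.76. Gm26870, a long noncoding gene at chr9:3000282-3038313, overlaps 9 of the others on the opposite strand. The strand setting of the counting is not given in the sources used here, so reads of the opposite strands cannot be told apart.

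**Figure D2:**
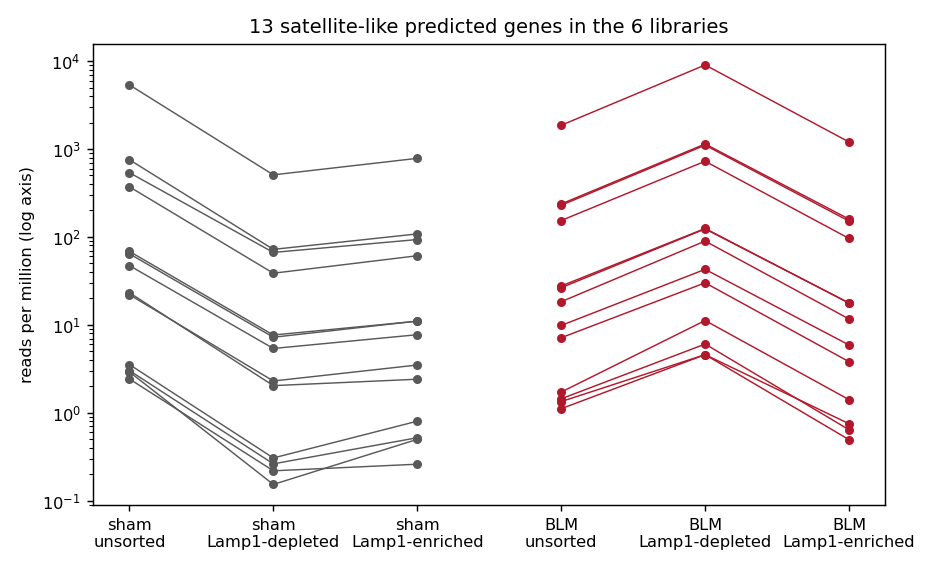
CPM (log axis) of the 13 satellite-like predicted genes in the 6 libraries, 1 line per gene, with lines joining the 3 libraries of a treatment only to make each gene traceable. Every gene was highest in the unsorted library in sham, where their sum was 7262, and in the Lamp1-depleted library in BLM, where it was 12437.

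A second group above both was annotated inside introns of other genes. Gm42770, Gm42768 and Gm42771 were among the 12 genes of 100 or more unsorted reads that lay farthest above both. All lie within Kcnip4, a gene for a potassium channel interacting protein, at chr5:48389502-49524907 on the minus strand. Gm42770 had 113 reads in unsorted, 5 in Lamp1-depleted and 8 in Lamp1-enriched cells, Gm42768 had 116, 5 and 11, and Gm42771 had 112, 6 and 15. Of 22 annotated loci inside Kcnip4 that could be compared, 21 were at least 2-fold and 17 at least 4-fold above both. Of the 22, 0 overlap an exon of Kcnip4. Loci entered by their reads in the unsorted library alone, which favours scarce loci that are high there. By the same rule, 7.68% of all genes compared were at least 2-fold and 2.42% at least 4-fold above both. Kcnip4 was picked for its high loci, so the counts of 21 and 17 are no test against these shares. Reads counted for Kcnip4 itself differed far less than those of its loci, 199 unsorted, 114 depleted and 139 enriched. Its log2 ratio was 0.44 over enriched (0.12 to 0.76) and 0.71 over depleted (0.37 to 1.06). Nav2, a neuronal navigator gene at chr7:48908716-49610090 on the plus strand, was a like case. Its intronic locus Gm37613 had 116 unsorted, 4 depleted and 14 enriched reads, whereas Nav2 itself had log2 ratios of 0.94 and 1.21 over enriched and depleted. Of the 22 loci in Kcnip4, 19 lie on its own strand. Those on the opposite strand, Gm43047, Gm19932 and Gm43670, were at least 4-fold above both too. In Nav2, 3 of 4 loci compared were at least 2-fold above both. Among them 9130015G15Rik, on the strand opposite to Nav2, had 138 unsorted, 4 depleted and 22 enriched reads. Kcnip4 and Nav2, as host genes, were looked up after the values of the loci were seen.

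Among marker lists with more than 3 genes compared, mesothelial genes had the highest median over Lamp1-enriched cells. The mesothelium is the flat cell layer that covers the lung. Of 9 genes, 8 were at least 2-fold above both, beside 7.68% of all genes compared. The median log2 ratio was 2.36 over enriched and 2.35 over depleted, beside 0.05 and 0.10 over all genes compared. Msln, the gene of the surface protein mesothelin, had 151 reads in unsorted cells and 14 in each sorted library, a log2 ratio of 3.30 over enriched (2.56 to 4.26) and 3.29 over depleted (2.55 to 4.25). Upk3b, a uroplakin, was at 7.89 CPM unsorted, 1.07 depleted and 0.522 enriched. Muc16, a membrane mucin, was at 16.5, 3.31 and 3.22 in the same order. These 3 genes, Msln, Upk3b and Muc16, were at least 4-fold above both. Wt1, a transcription factor of mesothelium, had a log2 ratio of 2.69 over enriched and 1.63 over depleted, on 44 unsorted reads. The exception was Nkain4, at 5.31 unsorted, 0.768 depleted and 4.61 enriched. Its interval over enriched, -0.06 to 0.47, includes no difference.

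Alveolar macrophages, the resident phagocytes of the air space, gave the next highest median. Of 12 genes, 8 were at least 2-fold and 4 at least 4-fold above both, beside 7.68% and 2.42% of all genes compared. The medians were 1.97 over enriched and 2.11 over depleted. Chil3, a chitinase-like secreted protein, was at 313 CPM in unsorted cells, 76.0 in Lamp1-depleted and 79.6 in Lamp1-enriched cells. Its level differed little between the sorted libraries and was about 4 times as high in the unsorted library. The 4 genes past 4-fold were Plet1, at 26.7 unsorted, 5.77 depleted and 4.11 enriched, Krt79, Fabp1 and Siglec5. Siglec5 is the table's symbol for the locus of Siglec-F, a sialic acid-binding receptor that marks these cells, and it was at 14.3, 3.11 and 3.35. Mrc1, the macrophage mannose receptor, which is listed here with interstitial macrophages, followed the same order at 73.7, 16.6 and 18.9. Not every member followed it. Itgax, an integrin also carried by dendritic cells, was at 68.0, 54.2 and 17.5, and Abcg1, a sterol exporter, at 127, 135 and 90.1, below depleted cells. Among 9 interstitial macrophage genes, 4 were 2-fold above both, the complement genes C1qa, C1qb and C1qc besides Mrc1. Cx3cr1, the fractalkine receptor, was below Lamp1-depleted cells by 2.23 on the log2 scale.

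**Figure D3:**
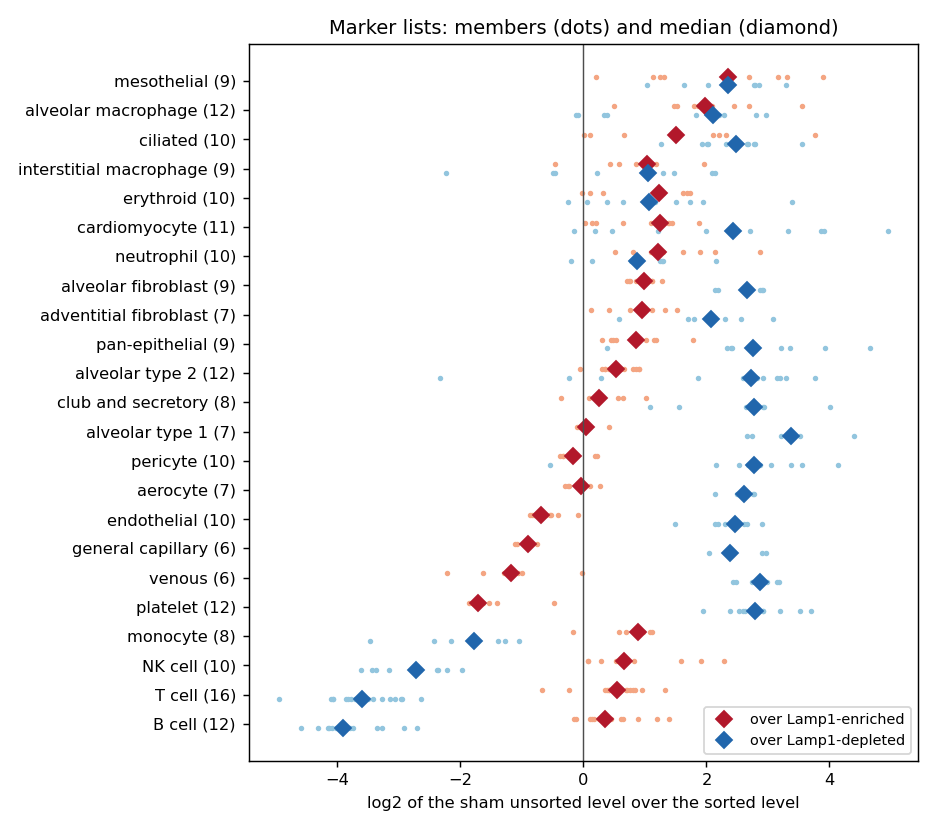
Log2 ratio of the sham unsorted level over Lamp1-enriched (red) and Lamp1-depleted cells (blue) for 23 marker lists, with small dots for genes, diamonds for list medians and the number of genes in brackets. Mesothelial and alveolar macrophage medians lie together near 2 on both ratios, endothelial and platelet medians fall on opposite sides of 0, and lymphoid medians are far to the left over Lamp1-depleted cells only.

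Ciliated cell and fibroblast genes lay above both fractions too, by less over Lamp1-enriched than over Lamp1-depleted cells in the median. Of 10 ciliated cell genes, 7 were at least 2-fold above both, beside 7.68% of all genes, with medians of 1.51 over enriched and 2.49 over depleted. Foxj1, the master transcription factor of motile cilia, had 98 unsorted, 14 depleted and 32 enriched reads. Ccdc153, a ciliary gene, had 50, 7 and 3, which gives a log2 ratio of 3.76 over enriched with a wide interval of 2.35 to 6.31. Tmem212 and Mlf1 were also past 4-fold, on 18 and 36 unsorted reads. Sec14l3, the ciliated list's most abundant gene in reads, did not share this pattern. It was at 116 unsorted, 9.87 depleted and 115 enriched. Of 9 alveolar fibroblast genes, all were above both and 4 by 2-fold, with medians of 0.98 over enriched and 2.66 over depleted. Pdgfra, a growth factor receptor of these fibroblasts, was at 131 unsorted, 21.3 depleted and 64.2 enriched, and Inmt, a methyltransferase, at 237, 31.5 and 110. Col3a1, a fibrillar collagen, was at 97.8, 15.9 and 46.3, and Dcn, a small proteoglycan of the matrix, at 45.8, 12.6 and 16.7. Both belong to a fibrillar matrix list of 8 genes, with 7 above both, 3 of them by 2-fold, and 1 between. The sum of that list was 611 CPM unsorted, 119 depleted and 506 enriched, so as a whole it was little above enriched cells. Other airway and mesenchymal lists were closer to Lamp1-enriched cells. Of 8 club and secretory genes, 7 were above both and 1 by 2-fold, with medians of 0.26 over enriched and 2.77 over depleted. Scgb1a1, the club cell secretory protein, was at 96.7, 13.8 and 61.8. Of 9 smooth muscle genes, 5 were above both, 3 of them by 2-fold, and 4 lay between, with medians of 0.13 and 2.22. Acta2, smooth muscle actin, was at 14.0, 3.01 and 12.8.

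Some markers of cells outside the lung parenchyma were in the unsorted library at higher levels as well. Of 10 erythroid genes, 5 were 2-fold above both, beside 7.68% of all genes compared. Hbb-bs, a beta globin, was at 254 CPM unsorted, 76.7 depleted and 79.6 enriched. Globin genes come in near-identical copies, so the split between Hbb-bs and Hbb-bt is uncertain. Of 11 cardiomyocyte genes, 6 were 2-fold above both, such as Actc1, cardiac actin, at 5.87, 0.395 and 2.15. Cidec, a lipid droplet protein of fat cells, had 307 unsorted, 60 depleted and 48 enriched reads and was past 4-fold. The fat cell list had 3 of its 5 genes compared. Their sum was 6.98 CPM unsorted, 1.45 depleted and 1.33 enriched, most of it from Cidec, so the list rests on this gene. The lymphatic endothelial list was divided. Prox1, the transcription factor that sets lymphatic identity, was at 5.19, 0.812 and 1.37, and Reln, a secreted guidance protein, at 13.8, 5.51 and 1.93, whereas Flt4 and Mmrn1 lay between the fractions. Single genes past 4-fold were Alox15, a lipoxygenase of eosinophils and resident macrophages, with 94 unsorted, 14 depleted and 6 enriched reads, and Col2a1, a cartilage collagen, on 14 unsorted reads.

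Neutrophil and cytokine genes were above Lamp1-enriched cells more than above depleted cells. Of 10 neutrophil genes, 9 were above both, 2 of them by 2-fold, with medians of 1.21 over enriched and 0.88 over depleted. Il1r2, a decoy receptor for interleukin-1, was at 18.1 unsorted, 7.61 depleted and 4.11 enriched. Of 14 cytokine genes compared, 4 were 2-fold above both, and the median was 1.79 over enriched and 0.70 over depleted. Cxcl2, a neutrophil-attracting chemokine, was at 51.6 unsorted, 11.1 depleted and 8.37 enriched, past 4-fold over both. Ccl7, a monocyte-attracting chemokine, had 56, 11 and 3 reads. Il1b, the gene of interleukin-1 beta, was at 142, 105 and 35.8, and Tnf at 16.7, 11.6 and 3.24, so that most of their difference was from enriched cells. In all, 15 of the 434 genes compared in the marker and program lists were at least 4-fold above both and 77 at least 2-fold, beside 2.42% and 7.68% of all genes. None of the 434 was 2-fold below both, which is near the 0.174% of all genes.

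**Figure D4:**
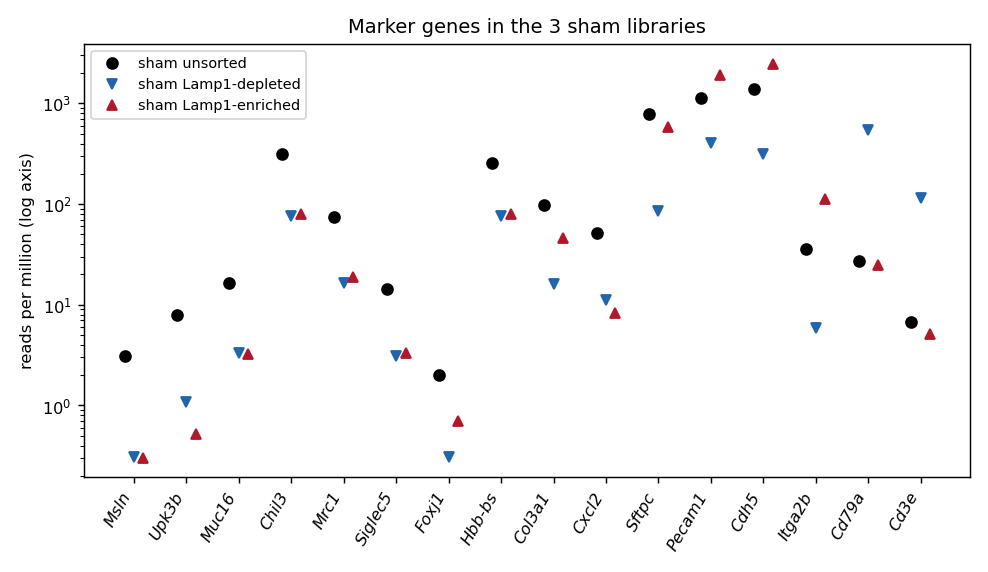
CPM (log axis) of 16 marker genes in the 3 sham libraries, with circles for unsorted, downward triangles for Lamp1-depleted and upward triangles for Lamp1-enriched cells. From Msln to Cxcl2 the unsorted level is the highest of the 3, as for Chil3 at 313 against 76.0 and 79.6, while Pecam1, Cdh5, Itga2b, Cd79a and Cd3e have the unsorted level between the sorted levels.

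Endothelial and platelet genes lay between the fractions, as did 51.6% of all genes compared. All 10 endothelial genes were higher in Lamp1-enriched than unsorted and higher in unsorted than Lamp1-depleted cells, with medians of -0.68 over enriched and 2.46 over depleted. Cdh5, the cadherin of endothelial junctions, was at 1395 unsorted, 317 depleted and 2483 enriched. All 6 venous genes were between as well, with a median of -1.18 over enriched. Slc6a2, a noradrenaline transporter of venous endothelium, was at 106, 15.9 and 496, a log2 ratio of -2.22 over enriched (-2.27 to -2.18). Vwf, the von Willebrand factor gene, was at 659, 118 and 2052. All 12 platelet genes lay between, with medians of -1.71 over enriched and 2.79 over depleted. Ppbp, the platelet basic protein gene, was at 206 unsorted, 27.1 depleted and 694 enriched, and Itga2b, the platelet fibrinogen receptor subunit, at 36.1, 5.94 and 114. Of 8 arterial genes, 7 lay between. Of the vessel lists, aerocytes were closest to enriched cells, with a median of -0.05 over enriched, which turns to the other side of 0 with total counts as the scaling.

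Among epithelial lists, alveolar type 1 genes were the closest to Lamp1-enriched cells. The 7 alveolar type 1 genes had medians of 0.04 over enriched and 3.37 over depleted. Ager, the receptor that marks these flat cells, was at 46.8 unsorted, 4.08 depleted and 43.5 enriched. The 12 alveolar type 2 genes had medians of 0.53 and 2.73, and 9 of them were above both, 0 by 2-fold. Summed, they were at 1728 CPM unsorted, 458 depleted and 1218 enriched. Napsa, an aspartic protease, was unlike the rest, at 36.0 unsorted, 181 depleted and 28.2 enriched. For 9 pan-epithelial genes the medians were 0.86 and 2.76, with 3 genes 2-fold above both, among them Krt19, a keratin. Pericytes, the contractile cells on capillaries, had a median of -0.18 over enriched, positive with total counts, and 2.78 over depleted.

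Genes of B, T and NK cells formed the opposite end. B cell genes had medians of 0.35 over enriched and -3.91 over depleted, and T cell genes of 0.55 and -3.61. Ighm, the constant region of IgM, was at 132 CPM unsorted, 2338 depleted and 122 enriched. Ms4a1, which encodes Cd20, was at 51.8, 840 and 46.1. Cd3e, a chain of the T cell receptor complex, was at 6.69, 116 and 5.15, and Nkg7, a granule protein of cytotoxic cells, at 4.18, 51.6 and 3.98. Of 10 NK cell genes, all were between the fractions, beside 51.6% of all genes, with a median of -2.72 over depleted. Monocytes had a smaller gap, with medians of 0.89 over enriched and -1.77 over depleted. Ccr2, their chemokine receptor, was at 44.0, 115 and 24.2. Of 226 T cell receptor segments, 37 had the 10 unsorted reads needed, a rule that favours scarce segments high in the unsorted library. Among the 37, 33 lay between and 4 below both, and their sum was 24.99 CPM unsorted, 271 depleted and 14.5 enriched. Their median over enriched, 0.98, ran from 0.58 to 1.36 across the settings tried. NK cell genes ran from 0.07 to 2.29 over enriched, with a median of 0.66. The B, T and NK cell lists were thus far below depleted cells, while their distance from enriched cells differed between genes. Plasma cell genes were not so far below, with medians of 0.52 over enriched and -0.74 over depleted, and 2 of 6 were above both.

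The place of the unsorted level between the fractions can be written as a position on the linear CPM scale, 0 at the Lamp1-depleted and 1 at the Lamp1-enriched level. It was computed for the 5681 genes whose sorted libraries were at least 4-fold apart, and it is not a share of cells. In 3512 genes higher in enriched cells the median position was 0.84, with quartiles of 0.65 and 1.25. In 2169 genes higher in depleted cells it was 0.85, with quartiles of 0.67 and 0.92. The medians were alike, but cell lists were not at one position. The median was 0.27 for platelet, 0.40 for venous, 0.48 for general capillary, 0.57 for endothelial and 0.96 for aerocyte genes, 1.04 for alveolar type 1, 0.87 for monocyte, 0.92 for NK cell, 0.97 for T cell and 0.98 for B cell genes. Beyond 1, above enriched cells, were 37.4% of the genes that were higher in enriched cells. Under 0, above depleted cells, were 7.10% of those higher in depleted cells. Some other lists had medians beyond 1, of 1.67 for 7 alveolar type 2, 1.47 for 4 pan-epithelial, 1.21 for 5 club and secretory and 2.95 for 5 cardiomyocyte genes.

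**Figure D5:**
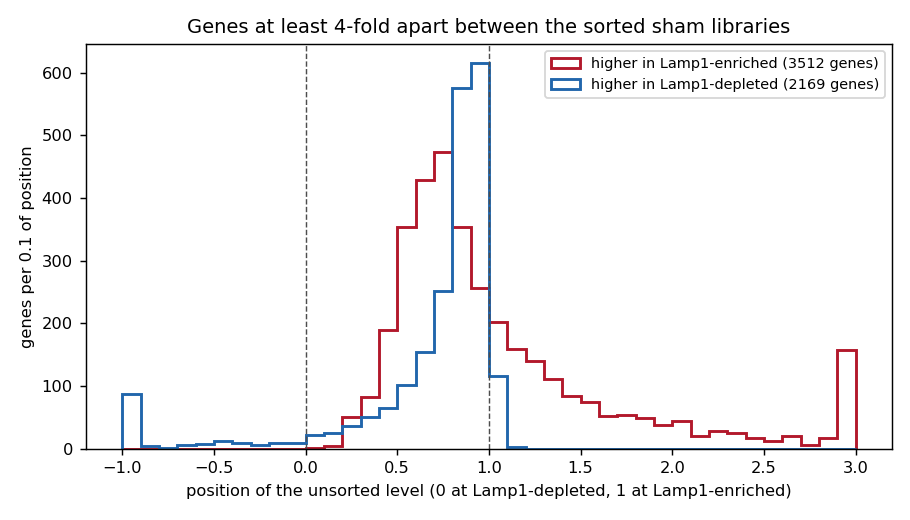
Number of genes per 0.1 of position of the sham unsorted level, from 0 at Lamp1-depleted to 1 at Lamp1-enriched (dashed lines), for 3512 genes higher in Lamp1-enriched (red) and 2169 higher in Lamp1-depleted cells (blue), with values past either end gathered in the outermost bar. Both distributions peak between 0 and 1 with medians of 0.84 and 0.85, and the red one has a long tail above 1, which holds 37.4% of its genes.

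With 10 or more unsorted reads, 38 genes were 2-fold below both fractions, and with 10 or more reads in the highest sham library 260 were. Of the 38, 8 were protein-coding and 7 were immunoglobulin variable segments, and their median was 14 unsorted reads. Hist1h2bf, a replication-dependent histone gene, had 121 reads unsorted, 675 in Lamp1-depleted and 294 in Lamp1-enriched cells. Treml2, a receptor of the TREM family, had 645, 3732 and 1222, and at a log2 ratio of -0.9986 over enriched it was just outside the 2-fold limit. Oasl1, of the interferon-induced OAS family, was also just outside it, at -0.98. Med12l, a Mediator subunit paralog, had 344, 891 and 759 reads, but the receptor genes P2ry12, P2ry13, P2ry14 and Gpr171 lie inside it on the other strand, so its reads are uncertain. Abundant genes fell short of 2-fold below both but carried the most reads. Eef1a1, the translation elongation factor, was at 3220 CPM unsorted, 6887 depleted and 4634 enriched. Actb, cytoplasmic actin, was at 3697, 6959 and 4780, and B2m, the light chain of MHC class I, at 1386, 1843 and 2793. Ly6e, a small surface protein, was at 645, 1210 and 1248, nearly 2-fold below each.

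Cytosolic ribosomal protein genes were lower in unsorted than in Lamp1-depleted cells. Of 78, 58 were below both and 1 was above both, with medians of -0.17 over enriched, positive with total counts, and -1.16 over depleted. Their summed level was 10089 CPM unsorted, 24122 depleted and 11523 enriched. Rplp0, a stalk protein of the large subunit, was at 319, 910 and 451. Of 52 replication histone genes, 35 were below both, with medians of -0.54 and -1.41. The list of 15 proliferating cell genes went the other way, with 10 above both, 0 below both and medians of 0.51 and 0.81. The 106 of 268 immunoglobulin segments with enough unsorted reads had 56 between and 50 below both, with medians of 0.05 over enriched and -3.88 over depleted. The ribosomal protein, histone and immunoglobulin families hold near-identical copies, so counts of single members are uncertain. Over all genes compared, 21% were below both and 51.6% between. The share of immunoglobulin segments that lay between was thus near that of all genes.

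Immediate early and heat shock genes are known to respond to tissue dissociation. Unsorted and sorted cells both came from dissociated lungs, so these ratios do not measure that response. None of 29 immediate early genes was 2-fold above or below both. By any size, 7 were above both, 19 between and 3 below both, with medians of 0.06 over enriched and 0.47 over depleted. Fos was at 385 unsorted, 300 depleted and 306 enriched, and Egr1 at 661, 170 and 706. None of 13 heat shock genes was 2-fold above or below both, and 2 were above both, 8 between and 3 below both by any size. Of all genes compared, 7.68% were 2-fold above both and 0.174% 2-fold below. By any size, 27.4% were above both, 51.6% between and 21% below both. Finding none at 2-fold in lists this short is near these shares. Hspa1b, an inducible Hsp70, was at 219, 30.1 and 155. The senescence genes of the study's RT-qPCR gave no common order. With Lamp1 added they are 5 genes, of which Cdkn1a and Cdkn2a were above both, Lmnb1 and Lamp1 between and Glb1 below both. Cdkn1a, the gene of p21, was at 66.3, 25.2 and 59.6, Cdkn2a, the locus of p16, had 41 unsorted, 6 depleted and 28 enriched reads, and Glb1, lysosomal beta-galactosidase, was at 8.84, 14.3 and 13.2.

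The 6 largest gains in CPM over the higher sorted library were Gm10800, the noncoding RNAs Rmrp and Rpph1, and the mitochondrial mRNAs mt-Cytb, mt-Nd1 and mt-Nd2. Rmrp, the RNA of the mitochondrial RNA processing endonuclease, was at 5675 CPM unsorted, 2949 depleted and 2246 enriched. Rpph1, the RNA of RNase P, was at 7236, 5453 and 4322. Both overlap another annotated gene, Ccdc107 on the other strand and Ccnb1ip1 on the same strand. Libraries were made from polyadenylated RNA, and neither of these RNAs is usually polyadenylated. Mitochondrial mRNAs gained little per gene: mt-Cytb was at 5070, 3699 and 4070. In this list 8 of 13 were above both and none by 2-fold, beside 27.4% and 7.68% of all genes. Of 6 nuclear long noncoding RNAs, 4 were above both and 1 by 2-fold, but their sum was 13947 unsorted, 13905 depleted and 9267 enriched, little above depleted cells. By annotation class, 1070 of 15379 protein-coding genes (6.96%) were 2-fold above both, against 145 of 1388 TEC loci (10.4%), which are annotated from transcript evidence still to be tested, and 108 of 796 long intergenic noncoding RNAs (13.6%). With genes in 5 bins of equal number by exon length, the bin of the shortest genes had a median of 0.36 over enriched and that of the longest -0.05, while over depleted these were -0.02 and 0.05. The share 2-fold above both was 9.02%, 9.25%, 7.63%, 5.93% and 6.48% from the shortest to the longest bin. The part of gene length in these ratios was not tested.

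The same comparison in BLM-treated mice used the other 3 libraries. Of 20534 genes, 1917 were at least 2-fold above both, 90 at least 2-fold below both and 11326 between. Among 19604 genes with 10 or more reads in both unsorted libraries, 1040 were 2-fold above both in sham and 1481 in BLM. The 472 genes in both sets were 45.4% of the sham and 31.9% of the BLM set. Alveolar macrophage genes were above both in either treatment, with BLM medians of 3.01 over enriched and 3.57 over depleted, and so were mesothelial genes, with 1.502 and 2.92. Endothelial and platelet genes lay between in BLM as in sham, with platelet medians of -1.37 and 2.30. Alveolar fibroblast genes had a median of 0.02 over enriched cells in BLM, against 0.98 in sham. These differences between treatments were not tested. The BLM Lamp1-depleted library stood apart in that 38.4% of its reads fell on Gm26917, against 0.884% to 3.50% in the 3 sham libraries, and each BLM ratio over depleted cells uses that library. Its part in them was not tested.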

How the data were processed

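The deposited values were raw read counts per gene for 6 libraries. The submitters' processing notes name Trimmomatic 0.36, STAR 2.5.2b, featureCounts of Subread 1.5.2, DESeq2 and the build GRCm38, without role or order. Annotation release and strand setting are not given in the sources used here. Libraries were made from polyadenylated RNA.

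TMM factors over the 6 libraries came from edgeR 4.0.16 (R 4.3.3). The log2 ratios were taken in Python (3.11.15; numpy 2.4.6, pandas 2.3.3, scipy 1.17.1) after adding 0.5 reads, in proportion to library size, to each gene. A gene entered if the unsorted library held 10 reads of it or more. Intervals are Clopper-Pearson intervals at 95% of the share of reads in a pair of libraries. They cover counting error only, and PCR copies are not independent molecules. The programs were tested on simulated data.

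Gene positions, classes, exon lengths and sequences came from GENCODE M21, in which 49056 of 49315 identifiers were found. List genes were matched by the table's symbol, then by the M21 symbol.

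Members, the 49 lists and the rules were chosen with earlier results of these data known. Named genes were the 12 farthest above and below both with at least 100 reads, up to 5 members of each list with the most unsorted reads, members at least 4-fold above both, 4 check genes, and the 6 genes each with the largest gain and loss of CPM. The text names some of these. The satellite-like set, Kcnip4, Nav2, Gm26917, Wt1, Rplp0 and other genes outside this rule were chosen after their values were seen. Alternatives were other scalings, prior counts, read minimums, thinned counts and counting intervals.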

Additional observations from a re-analysis of the deposited data

Results flagged for a closer look

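Some values differed in direction between sham and BLM. With 1 library per condition, none of these differences was tested. The 13 satellite-like predicted genes had a median log2 ratio of unsorted over Lamp1-depleted cells of 3.39 in sham and -2.22 in BLM. Replication histone genes had a median over Lamp1-depleted cells of -1.41 in sham and 0.70 in BLM, and among them Hist1h2bf was at -2.56 and 1.52. Neutrophil genes had a median over Lamp1-depleted cells of 0.88 in sham and -1.14 in BLM. Cadm3, a cell adhesion molecule, had a log2 ratio over Lamp1-depleted cells of -1.10 in sham and 1.83 in BLM, on 56 unsorted sham reads, and it overlaps Aim2 on the opposite strand and Ackr1 on its own. Each BLM value uses the Lamp1-depleted library in which 38.4% of reads fell on Gm26917, and the part of that library in these differences was not tested.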

How the results depend on the processing

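No paired analysis was possible because each condition has 1 library. The read minimum moved the counts above and below both most. With at least 50 unsorted reads, 500 genes were 2-fold and 79 were 4-fold above both, 5 were 2-fold below both, 83.8% of the genes 2-fold above both were protein-coding (63.8% as reported), 191 genes were 2-fold above both in sham and BLM, and the median position (0.85 over both directions as reported) was 0.838. With at least 1 unsorted read these were 7990, 3956, 280, 41.9%, 1707 and 0.814, with 36 genes 4-fold below both. Under choices made after seeing the data, at least 10 reads in the highest sham library gave 260 genes 2-fold and 78 genes 4-fold below both, at least 100 gave 312 and 44 above both and 2 genes 4-fold below both, and protein-coding genes alone gave 1070 and 305 above both and 8 genes 2-fold below both. Total counts as the scaling added 0.22 to each log2 ratio over enriched and 0.05 over depleted, left 22 genes 2-fold below both and gave a position of 0.873. A prior count of 2 gave a position of 0.838, and 1 gene was 4-fold below both without Gm26917. Requiring the counting intervals to leave out no difference left 6351 genes between. Of the list medians at least 2-fold in size, 408 of 416 values under the other settings were still at least 2-fold in the same direction, and 0 changed sign. Of smaller values, 11 changed sign under some setting, 6 of them with total counts. The medians of Schwann and nerve genes and of the senescence genes over enriched (0.44 and 0.15) became -0.49 and -0.21 with at least 50 unsorted reads, and that of eosinophil genes over depleted (-0.21) became 0.65 with at least 1. With 1 library per condition, variation between mice could not be measured.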
